A study of Caenorhabditis elegans with 12 samples.

Results

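Germlines that lacked zygotic *lin-54* were compared with wild type germlines on 6 arrays, 3 labelled *lin-54(n3423)* alone and 3 labelled wild type, out of 12 arrays in the series. The other 6 arrays, 3 of *mes-4(ok2326)* and 3 of the double mutant with both alleles, entered the estimate of the spread and serve at the end as a second pair of genotypes that differ by *lin-54*. Worms were adult hermaphrodites kept at 20 degrees, and their germlines were taken 24 hr past L4. A sample pooled 50 to 70 germlines, each cut to hold the mitotic tip through late pachytene. The *lin-54* animals were M+Z-, homozygotes from heterozygous mothers that carried the nT1 balancer, so a maternal supply of the wild type product had been present in the embryo. The *n3423* allele deletes most of the open reading frame, and the *mes-4* groups were M+Z- for a deletion of the H3K36 methyltransferase MES-4. RNA was linearly amplified before hybridization to the Affymetrix *C. elegans* array, and each value is a log2 level of a probe set, so that a difference of 1 is 2-fold. The comparison covered 17085 genes (14722 autosomal, 2355 X-linked and 8 mitochondrial), each represented by its most significant probe set. A gene is called higher or lower where the Storey q-value of the moderated test in limma was at or below 0.05. The replicates were separate biological samples, 3 in each genotype.

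LIN-54 is a DNA-binding subunit of DRM, a complex that joins the E2F and DP transcription factors and a retinoblastoma-like pocket protein to the MuvB core. DRM sits at many promoters and is best known for repression, including repression of germline genes in somatic cells and of cell-cycle genes, and its MuvB core has counterparts in flies and mammals that also activate genes of mitosis and gametogenesis. In the adult hermaphrodite gonad, germ cells divide at the distal tip, pass through meiotic prophase and then differentiate as oocytes, after an earlier burst of spermatogenesis in the larva. Chromatin of the X is largely repressed during germ cell proliferation and pachytene, and many X-linked transcripts appear only as oocytes form.

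The *lin-54* transcript itself was the largest decrease among autosomal genes. Its level was 10.80, 10.78 and 10.86 on the wild type arrays and 6.4, 7.76 and 6.32 on the *lin-54* arrays, a log2 change of −3.99 ± 0.30 (SE, q = 6.36e-05). All 3 mutant arrays lay more than 3 log2 units below every wild type array, and array 2 of the mutant kept the highest remaining signal. Where the probe set lies relative to the deleted part of the gene is not given in the sources used here. No other DRM subunit was called. The change was 0.21 for *efl-1* (E2F), −0.26 for *dpl-1* (DP) and −0.39 for *lin-35*, the pocket protein, for which q was 0.102. Among the MuvB partners of LIN-54, the values were −0.19 for *lin-9*, −0.24 for *lin-37*, −0.20 for *lin-52* and −0.16 for *lin-53*, with q from 0.154 to 0.317. The median level of the 8 subunits in wild type was 10.08, against 5.80 over all genes. On the *lin-54* arrays the median of the 8, *lin-54* included, was 9.95, 9.76 and 9.75. The list's median was thus well above the bulk of the array in both genotypes, though *lin-54* itself was not in the mutant.

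The 6 arrays were alike in scale, with medians of 5.82 to 5.93 and correlations of 0.990 to 0.996 within a genotype and 0.984 to 0.991 between genotypes. The germ cell helicase gene *glh-1*, a marker of the labelled tissue, read 12.08, 11.72 and 12.06 in wild type and 11.88, 11.72 and 11.78 in *lin-54*, which overlapped. The germ cell markers *gld-1* (−0.10), *htp-3* (−0.07), *him-3* (0.17) and *pgl-1* (0.15) were not called either. The marker *syp-1* was called higher (0.97, q = 0.00350). Markers of other tissues were mixed. The muscle myosin gene *myo-3* read between 3.76 and 4.06 on the 6 arrays, the intestinal transcription factor gene *elt-2* between 6.01 and 6.31, and the gonadal sheath transcription factor genes *ceh-18* and *lim-7* between 4.97 and 5.84. The muscle genes *unc-54* and *unc-15* read higher than *myo-3*, between 6.52 and 7.47. Their changes of 0.31 and 0.29 were not called. Other markers were high, among them the intestinal yolk protein gene *vit-6*, between 8.68 and 11.12, and the sheath gap junction gene *inx-8*, between 9.79 and 10.47 in wild type.

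In *lin-54* germlines 441 genes were higher than in wild type (2.58% of the genes tested) and 593 were lower (3.47%). The decreases were larger than the increases, with a median of −0.68 for the genes called lower and 0.42 for those called higher. A change beyond 2-fold was found for 143 of the genes that fell and 30 of those that rose, and beyond 4-fold for 16 and 13, while 351 of the increases (79.6%) stayed under 1.5-fold. The 3 *lin-54* arrays did not overlap the 3 wild type arrays for any of the 441 genes called higher, nor for 589 of the 593 called lower. Among all genes, 3003 (17.6%) were higher and 1903 (11.1%) lower without overlap. By sign alone 10696 of the 17085 genes were higher and 6389 lower. At an unadjusted p under 0.05 in limma, 2112 were higher and 1618 lower. The median over all genes was a change of 0.06, so the array as a whole sat slightly higher in *lin-54*. These counts and shares and this median are the values of all genes beside which the gene lists are given. The share called lower varied with the wild type level. It was 0.235% of genes under 5, 9.27% from 8 to 10, 7.04% from 10 to 12 and 14.2% at 12 and over. For a list of well-expressed genes, 3.47% is therefore a low share to compare with. Centred on the autosomal median of each array, 168 genes were higher and 792 lower, which turned the share of increases among the calls from 42.6% to 17.5%. With wild type arrays 1, 2 and 3 and *lin-54* arrays 1, 2 and 3 left out in turn, the genes higher numbered 79, 152, 99, 507, 201 and 89, and the genes lower 147, 320, 240, 805, 275 and 143.

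**Figure D1:**
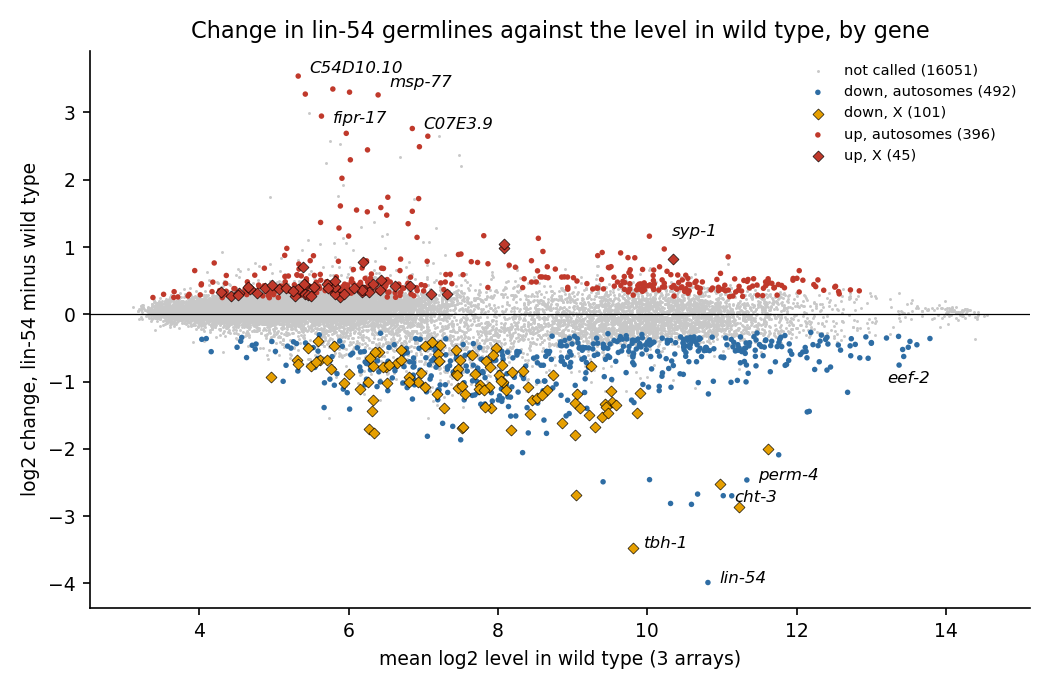
Log2 change (*lin-54* minus wild type) against the mean log2 level in wild type, 1 point a gene, with called genes coloured by direction and X-linked genes drawn as larger outlined symbols. The 593 genes called lower spread down to −3.99 and lie mostly to the right, at levels above 8, whereas most of the 441 called higher lie close above 0 at every level.

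Replicates of the mutant differed in the size of the decreases. Taken over the 593 genes called lower, the median distance from the wild type mean was −0.54 on *lin-54* array 1, −0.69 on array 2 and −0.77 on array 3, against 0.08, −0.02 and −0.06 on the wild type arrays. Array 1 was the highest of the mutant arrays for 359 of the 593 genes (60.5%), and array 3 was the lowest for 356. For the 101 X-linked genes among them the spread was wider, at −0.67, −1.01 and −1.33. Increases were even across the mutant arrays (0.43, 0.42 and 0.45 over the 441 genes). These per-array values use genes called from the same arrays and describe them only.

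Beside *lin-54*, the autosomal genes with the largest decreases lay on chromosomes II, III and IV, with log2 changes from −2.82 to −2.09. All were well expressed in wild type. *ddo-3* read 10.66, 11.13 and 9.99 in wild type and 8.76, 7.28 and 7.26 in *lin-54*, a change of −2.82 ± 0.43 (SE, q = 0.00443). The peroxidase gene *skpo-1* read 10.45, 10.57 and 9.92 against 8.87, 7.11 and 6.52 in *lin-54* (−2.81 ± 0.47, q = 0.00675). For *cht-3*, which encodes a chitinase-like protein, the levels were 11.24, 11.19 and 10.63 against 8.92, 8.37 and 7.68 in *lin-54* (−2.70 ± 0.25, q = 2.95e-04). The largest changes were named only among called genes without overlap, so the separation of the groups in these genes follows from that rule. In each of the 3 genes array 1 was the highest of the mutant arrays. The cathepsin gene *ctsa-1.1* (−2.70, q = 0.00679), *B0513.4* (−2.67, q = 0.00326) and the saposin-like gene *spp-10* (−2.49, q = 0.00675, but from −3.07 to −1.34 over the alternative settings) showed the same order. *perm-4* and *perm-2*, whose products act in the permeability barrier of the eggshell, are neighbours on chromosome IV. *perm-4* fell from 11.35, 11.68 and 10.97 to 10.09, 8.46 and 8.06 (−2.46 ± 0.42, q = 0.00763, and −0.69 by probe sets of an unshared type), and *perm-2* from 11.71, 12.06 and 11.51 to 10.48, 9.35 and 9.19 (−2.09 ± 0.31, q = 0.00372). Their mutant levels were again highest on array 1 and lowest on array 3. The innexin gene *inx-8*, known for gap junctions between gonadal sheath and germ cells, fell from 9.83, 10.47 and 9.79 to 8.10, 7.41 and 7.21 (−2.46 ± 0.31, q = 0.00198). Each of these calls held with any 1 of the 12 arrays left out.

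Other strong decreases were chosen for mention after their values were seen. The half-molecule ABC transporter gene *haf-6* fell by 2.06 on the log2 scale (q = 0.00170), from 8.44, 7.93 and 8.62 to 6.80, 6.15 and 5.87. The cysteine synthase-like gene *cysl-2* fell from 6.97, 7.20 and 6.99 to 5.47, 5.13 and 5.13 (−1.81 ± 0.19, q = 6.74e-04), with mutant arrays close to one another. Lower too were *far-2*, a fatty acid and retinol binding protein gene (−1.45, q = 0.0155), and *lea-1*, a desiccation-linked LEA protein gene (−1.44, q = 0.0150, but from −1.55 to −0.56 over the alternative settings). Both stood at about 12 on the wild type arrays. The calls of *haf-6* and *cysl-2* held with any 1 of the 12 arrays left out, whereas in such fits the highest q lay between 0.0722 and 0.0819 for *far-2* and *lea-1*.

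The most abundant of the genes that fell moved less. They were the ADP/ATP carrier gene *ant-1.1* (−0.36, q = 0.0199), the constitutive HSP70 gene *hsp-1* (−0.45, q = 0.0485), the C-type lectin gene *clec-87* (−0.40, q = 0.0232), the alpha-tubulin gene *tba-2* (−0.49, q = 0.0174) and the polyubiquitin gene *ubq-1* (−0.63, q = 0.00948). *ubq-1* read 13.57, 13.34 and 13.39 in wild type and 12.94, 12.69 and 12.79 in *lin-54*. The elongation factor gene *eef-2* read 13.47, 13.36 and 13.43 against 12.88, 12.90 and 12.91 in *lin-54* (−0.52 ± 0.08, q = 0.00437), with mutant arrays almost equal. The call of *eef-2* held with any 1 of the 12 arrays left out, whereas in such fits the highest q lay between 0.0526 and 0.154 for *ant-1.1*, *hsp-1*, *clec-87*, *tba-2* and *ubq-1*.

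Outside the sperm genes, a small set of autosomal genes rose by more than 2 log2 units from levels near the middle of the array. *C54D10.10* on chromosome V had the largest increase of all genes, from 5.58, 5.53 and 4.86 in wild type to 9.10, 8.75 and 8.75 in *lin-54* (3.54 ± 0.24, SE, q = 3.29e-05). *fipr-17* on III rose from 5.7, 5.76 and 5.45 to 8.67, 8.53 and 8.55 (2.95 ± 0.15, q = 2.41e-06). *C07E3.9* on II went from 6.86, 7.17 and 6.53 to 9.70, 9.66 and 9.48 (2.76 ± 0.19, q = 3.29e-05). The 3 mutant arrays of each gene were close to one another and lay more than 2 log2 units above every wild type array. *F57A10.2* on V rose from 5.92, 5.89 and 6.1 to 8.75, 8.66 and 8.57 (2.69 ± 0.14, q = 2.41e-06), and the neighbouring gene *F57A10.4* from 9.42, 9.68 and 9.45 to 10.32, 10.29 and 10.05 (0.71 ± 0.10, q = 0.00343). Each of these calls held with any 1 of the 12 arrays left out.

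Of the increases named after their values were seen, *wht-3*, an ABC transporter gene of the White family, rose from 5.90, 6.58 and 6.28 to 8.23, 8.94 and 8.92 (2.44 ± 0.23, q = 2.95e-04). *slc-36.4*, of an amino acid transporter family, rose from 5.69, 6.08 and 5.97 to 7.75, 8.24 and 7.81 (2.02 ± 0.16, q = 7.45e-05). The sterol methyltransferase gene *strm-1* (1.61, q = 7.67e-04), *C09G5.7* (1.59, q = 0.00212) and *sup-1* (1.52, q = 0.00193) followed. The groups did not overlap for any of these 5 genes, as for all 441 genes called higher. Each of these calls held with any 1 of the 12 arrays left out. Among the most abundant genes that rose were the Y-box RNA-binding protein gene *cey-4* (0.35, q = 0.0262) and *F36A2.7* (0.42, q = 0.0246), and the mitochondrial genes described below. With 1 of the 12 arrays left out the highest q lay between 0.108 and 0.111 for *cey-4* and *F36A2.7*.

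**Figure D2:**
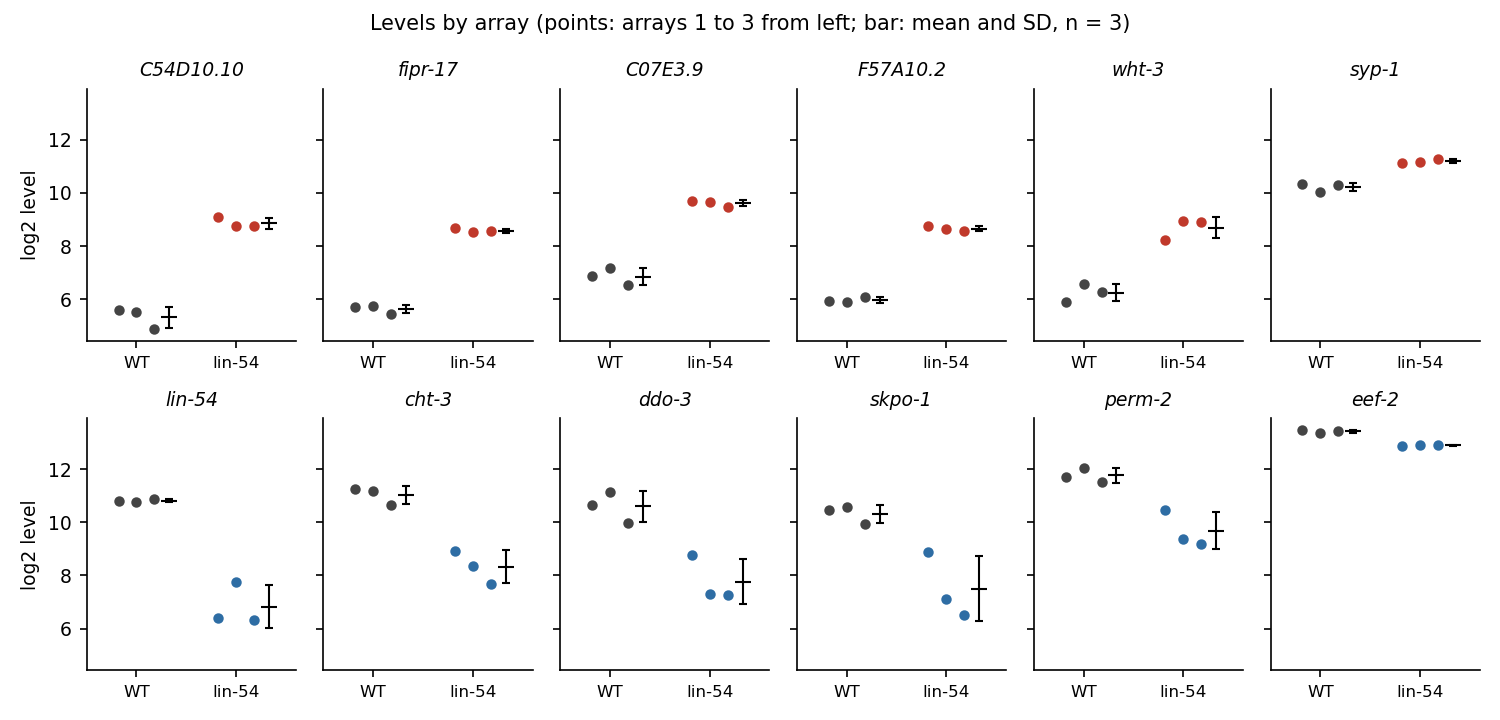
Log2 levels of 12 genes on the 3 wild type arrays (grey) and the 3 *lin-54* arrays (red where higher, blue where lower), with the mean and SD of each group (n = 3). Mutant arrays of *fipr-17*, *F57A10.2* and *eef-2* lie close together, whereas those of *ddo-3*, *skpo-1*, *cht-3* and *perm-2* are highest on array 1 and lowest on array 3, and *lin-54* is highest on array 2.

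Transcripts of the major sperm proteins (MSP), cytoskeletal proteins of nematode sperm that also signal to oocytes, were higher in *lin-54* throughout the family, but the mutant arrays differed greatly. The median level of the 23 *msp* genes was 6.43, 6.52 and 6.35 on the wild type arrays and 10.12, 7.13 and 8.82 on the *lin-54* arrays. All 23 genes were higher without overlap between the groups, with changes from 0.78 to 3.35 and a median of 2.34. *lin-54* array 2 gave the lowest mutant value for all 23 genes, and array 1 the highest for 22. *msp-36* read 5.47, 6.01 and 5.88 in wild type and 10.94, 6.95 and 9.52 in *lin-54* (3.35 ± 0.85, q = 0.0354), and *msp-77* read 6.46, 6.38 and 6.35 against 11.33, 7.65 and 9.99 in *lin-54* (3.26 ± 0.80, q = 0.0324). *msp-32* had a smaller and more even increase, from 6.24, 6.22 and 6.21 to 7.01, 6.84 and 7.16 (0.78, q = 0.0173). Other members among the largest increases of the comparison were *msp-78* (3.3), *msp-31* (3.27), *msp-59* (2.65) and *msp-65* (2.49). Only 11 of the 23 were called (47.8%, against 2.58% over all genes), all higher, and the q-values ran from 0.0173 to 0.0888 across the family. Leaving out wild type arrays 1, 2 and 3 and *lin-54* arrays 1, 2 and 3 in turn gave 0, 0, 0, 1, 23 and 0 called genes. The count was 1 with the Benjamini-Hochberg adjustment and 4 after centring on the autosomal median. The 1 probe set of an unshared type, for *msp-32*, changed by 0.33 and was not called. The coding sequences of *msp* genes are nearly alike, and 23 of the 24 probe sets are of a type shared between transcripts, so the genes cannot be read as separate measurements.

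Of 48 other sperm genes, 6 rose (12.5%) and 1 fell (2.08%), with a median change of 0.23, and 42 were higher, against 2.58% and 3.47% called and a median of 0.06 over all genes. The vacuolar ATPase subunit gene *spe-5* rose from 8.48, 8.7 and 8.63 to 9.67, 9.50 and 9.44 (0.93 ± 0.15, q = 0.00610). The sperm PP1 phosphatase gene *gsp-3* rose from 6.18, 6.17 and 6.19 to 7.21, 6.54 and 6.86 (0.69, q = 0.0220), highest on array 1 and lowest on array 2 of the mutant as the *msp* genes were. Its near-identical paralog *gsp-4*, which a probe set may not tell apart, read 6.96, 6.34 and 6.48 in *lin-54* (0.60, q = 0.0523) and was not called. The remaining increases were *ssp-19* (0.57), *smz-2* (0.57), *try-5* (0.45) and *ssp-10* (0.82). *spe-39*, a vesicle trafficking gene used in many tissues, fell (−0.45, q = 0.0146). With the wild type and then the *lin-54* arrays 1 to 3 left out in turn, 2, 2, 1, 4, 6 and 1 were called higher. The call of *spe-5* held with any 1 of the 12 arrays left out, whereas in such fits the highest q lay between 0.0583 and 0.175 for *gsp-3*, *ssp-19*, *smz-2*, *try-5*, *ssp-10* and *spe-39*. By array the list's median level was 6.0, 5.94 and 5.83 in wild type and 6.44, 6.1 and 6.35 in *lin-54*, so it shared with the *msp* genes the order of mutant arrays.

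Oocyte and eggshell transcripts were lower. All 32 members of this list were below wild type, 25 of them without overlap (11.1% of all genes were lower without overlap). In the list 15 fell (46.9%, against 3.47% over all genes) and none rose, with a median change of −0.46 against 0.06 over all genes. The median level was 11.72, 11.83 and 11.62 on the wild type arrays and 11.30, 11.49 and 11.39 on the *lin-54* arrays. The yolk receptor gene *rme-2* read 13.16, 12.69 and 13.02 in wild type and 12.12, 12.46 and 12.34 in *lin-54* (−0.65 ± 0.14, SE, q = 0.0190). The Pumilio-family translational repressor gene *puf-5* read 12.91, 12.58 and 12.69 against 11.96, 12.28 and 12.08 in *lin-54* (−0.62 ± 0.12, q = 0.0125). Mutant arrays 1 and 3 were lower than array 2 for both genes, an order unlike that of *perm-4* and *perm-2*. Genes of fertilization and the eggshell fell together, namely the LDL receptor-like genes *egg-1* (−0.65) and *egg-2* (−0.71), the chitin synthase gene *chs-1* (−0.55), the glucosamine acetyltransferase gene *gna-2* (−0.45) and the chitin-binding protein genes *cbd-1* (−0.35, but −0.18 and not called by probe sets of an unshared type), *cpg-2* (−0.33) and *cpg-3* (−0.75). Maternal regulators of the early embryo fell too, among them the CCCH zinc finger genes *mex-1* (−0.51) and *mex-6* (−0.58), the DYRK kinase gene *mbk-2* (−0.52, but −0.19 and not called by the mean of its probe sets) and the X-linked germ granule gene *meg-4* (−1.19, q = 0.00343). The oocyte maturation genes *oma-1* (−0.16, q = 0.295) and *oma-2* (−0.47, q = 0.0750) were not called. The count of genes that fell was 3, 9, 6, 17, 12 and 4 without wild type arrays 1, 2 and 3 and *lin-54* arrays 1, 2 and 3 in turn. The call of *meg-4* held with any 1 of the 12 arrays left out, whereas in such fits the highest q lay between 0.0606 and 0.160 for *puf-5*, *egg-1*, *egg-2*, *rme-2*, *mex-6*, *mex-1*, *chs-1*, *cbd-1*, *cpg-2*, *cpg-3*, *gna-2* and *mbk-2*. In RNA from germlines cut to hold the mitotic tip through late pachytene, fewer oocytes or late germ cells in a sample cannot be told apart from less RNA per cell. Where the cut fell in each sample was not tested.

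**Figure D3:**
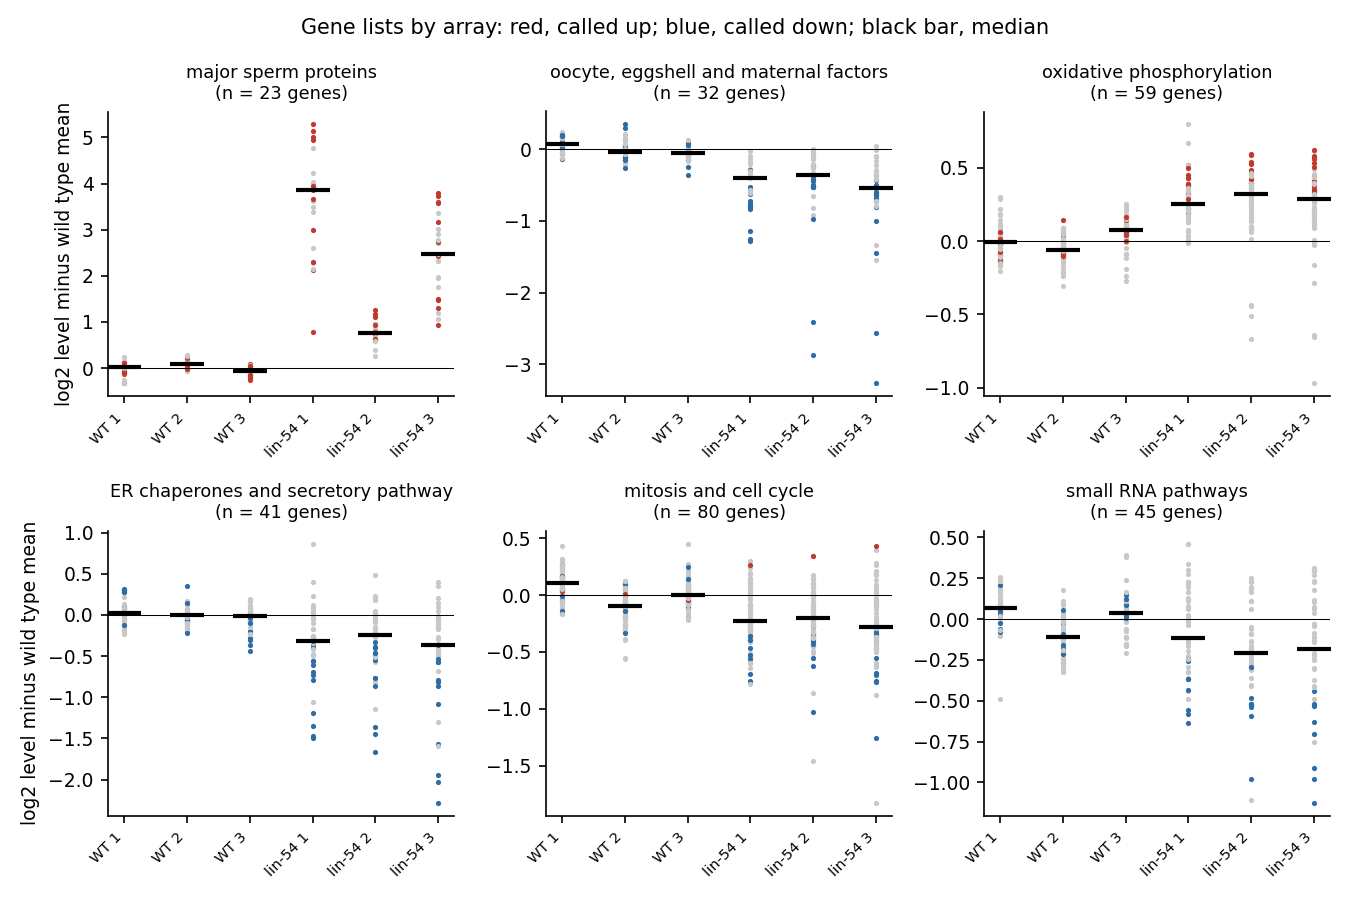
Log2 level minus the wild type mean of each gene on each of the 6 arrays, for 6 gene lists (each point 1 gene, red called higher, blue called lower, grey not called, black bar the median over the list). The *msp* genes separate the 3 *lin-54* arrays from one another, while the oxidative phosphorylation genes sit higher and the oocyte genes lower on all 3.

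Nuclear genes of oxidative phosphorylation were slightly higher. Of 59 measured, 15 rose (25.4%, against 2.58% over all genes) and none fell, with a median change of 0.28 against 0.06 over all genes. Without overlap between the groups 40 were higher, where 17.6% of all genes were. The list's median level was 11.54, 11.51 and 11.61 in wild type and 11.86, 11.94 and 11.91 in *lin-54*. All 53 autosomal members were higher, against 2 of the 6 on the X. The increases were small and reached every complex, with the complex I gene *ndua-5* at 11.49, 11.66 and 11.70 against 12.07, 12.10 and 12.18 in *lin-54* (0.50 ± 0.08, SE, q = 0.00513). The Rieske protein gene of complex III, *isp-1*, read 11.72, 11.55 and 11.73 against 12.05, 12.14 and 12.20 in *lin-54* (0.46 ± 0.07, q = 0.00632). Others were *nuo-2* (0.52) and *lpd-5* (0.39) of complex I, *sdhb-1* of complex II (0.53), *ucr-2.3* of complex III (0.53), *cox-4* of complex IV (0.30) and the ATP synthase gene *atp-5* (0.34, but 0.077 and not called by probe sets of an unshared type). *F58F12.1*, an ATP synthase gene outside the list that was among the most abundant genes to rise, changed by 0.36 (q = 0.0170). Centred on the autosomal median 8 of the 59 rose, and without shared probe sets 6. The number that rose was 4, 7, 12, 18, 8 and 5 when wild type arrays 1 to 3 and *lin-54* arrays 1 to 3 were left out in turn. The calls of *ndua-5*, *isp-1* and *ucr-2.3* held with any 1 of the 12 arrays left out, whereas in such fits the highest q lay between 0.0574 and 0.159 for *lpd-5*, *nuo-2*, *sdhb-1*, *atp-5*, *cox-4* and *F58F12.1*. In contrast, *ant-1.1*, which exports the ATP made by this pathway from mitochondria, fell.

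Mitochondrial ribosomal protein genes shifted the same way, with 8 of 59 called higher (13.6%, against 2.58% over all genes) and none lower. Their median was 0.15 against 0.06 over all genes, and 27 were higher without overlap, where 17.6% of all genes were. The list's median level was 10.40, 10.36 and 10.41 on the wild type and 10.56, 10.51 and 10.63 on the *lin-54* arrays. The clearest were *mrpl-34* (0.42, q = 0.0168), *mrpl-22* (0.45, q = 0.0237), *mrps-10* (0.39, q = 0.0246) and *mrps-28* (0.47, q = 0.0338, but 0.27 and not called by probe sets of an unshared type). Only 2 of the 59 rose after centring on the autosomal median, and 0, 1, 1, 6, 1 and 0 without the wild type and then the *lin-54* arrays 1, 2 and 3. None of 75 cytosolic ribosomal protein genes was called by limma (median 0.05, with 2 higher at an unadjusted p under 0.05 and none lower). Translation factors moved singly. The initiation factor subunit gene *eif-3.I* rose from 8.66, 8.52 and 8.45 to 9.34, 9.63 and 10.05 (1.13 ± 0.19, q = 0.00772), and *eif-3.E* (0.55), *eif-6* (0.52) and *eif-4A3* (0.44) rose as well, whereas *eef-2* and *eif-2Bdelta* (−1.2) fell. Of 39 translation factor genes 4 rose (10.3%) and 2 fell (5.13%), against 2.58% and 3.47% over all genes. Their median was 0.07, against 0.06 over all genes. With wild type arrays 1 to 3 and *lin-54* arrays 1 to 3 left out in turn, the increases numbered 1, 3, 2, 4, 3 and 2. The call of *eif-3.I* held with any 1 of the 12 arrays left out, whereas in such fits the highest q lay between 0.0526 and 0.154 for *mrpl-22*, *mrpl-34*, *mrps-10*, *mrps-28*, *eif-3.E*, *eif-6*, *eif-4A3* and *eif-2Bdelta*. The mitochondrial aconitase gene *aco-2*, in none of the lists and named after its value was seen, rose from 9.79, 9.77 and 9.66 to 10.25, 10.58 and 10.93 (0.84, q = 0.0269, at most 0.121 with 1 array left out).

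Genes of the endoplasmic reticulum (ER) and the secretory pathway were lower, 13 of 41 called (31.7%, against 3.47% over all genes) and none higher, with a median of −0.30 and 22 lower without overlap, where 11.1% of all genes were. The largest changes were X-linked. The disulfide isomerase gene *pdi-2* fell from 9.16, 8.87 and 8.55 to 7.51, 7.41 and 6.83 (−1.61 ± 0.20, SE, q = 0.00173), and *pdi-6* from 9.77, 9.53 and 9.11 to 7.97, 8.11 and 7.91 (−1.47 ± 0.20, q = 0.00267). The BiP gene *hsp-3* fell from 9.35, 9.0 and 8.75 to 7.57, 7.38 and 6.76 (−1.80 ± 0.33, q = 0.0114). All 8 X-linked members were lower, 4 of them called, with a median of −1.1. Of the 33 autosomal members 9 were called, with a median of −0.19. They included the second BiP gene *hsp-4*, from 12.73, 12.26 and 12.37 to 11.72, 11.69 and 11.60 (−0.78, q = 0.00448), and *xbp-1*, the transcription factor of the unfolded protein response, from 10.25, 9.73 and 9.85 to 8.76, 9.08 and 8.86 (−1.04, q = 0.00448). The oligosaccharyltransferase subunit gene *ostb-1* (−0.55), the GRP94 gene *enpl-1* (−0.71) and *pdi-3* (−0.45) fell too. Left out in turn, wild type arrays 1 to 3 and *lin-54* arrays 1 to 3 gave 5, 9, 8, 13, 10 and 5 genes that fell, and probe sets of an unshared type alone gave 7. The calls of *pdi-2*, *pdi-6*, *hsp-4*, *xbp-1* and *ostb-1* held with any 1 of the 12 arrays left out, whereas in such fits the highest q lay between 0.0589 and 0.0788 for *hsp-3*, *enpl-1* and *pdi-3*.

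Proteasome genes were mostly lower, 29 of 33 with a median of −0.17, of which 4 fell (12.1%, against 3.47% over all genes) and 1 rose (3.03%, against 2.58%). The list's median level in wild type was 11.71, and 7.04% of all genes from 10 to 12 were called lower. The regulatory particle genes *rpn-1* (−0.62, q = 0.0185), *rpn-2* (−0.55), *rpn-9* (−0.34) and *rpt-2* (−0.28) fell, while the core subunit gene *pas-7* rose (0.40, q = 0.0488). When these arrays were left out in the same order, 0, 1, 1, 2, 1 and 0 fell. With 1 of the 12 arrays left out the highest q lay between 0.0891 and 0.185 for *rpn-1*, *rpn-2*, *rpn-9*, *rpt-2* and *pas-7*. F-box genes, a large family of ubiquitin ligase adaptors expressed at low levels (median 4.65), gave 8 decreases (2.58%) and 2 increases (0.645%) of 310, below the shares over all genes. *fbxa-13* (−1.13, q = 0.00343), *fbxa-200* (−0.84), *fbxc-50* (−1.28) and *fbxa-206* (−0.59) fell and *fbxa-161* (0.37) and *fbxa-122* (0.48) rose. By probe sets of an unshared type *fbxc-50* changed by 0.01. The calls of *fbxa-13* and *fbxa-200* held with any 1 of the 12 arrays left out, whereas in such fits the highest q lay between 0.0691 and 0.0973 for *fbxc-50*, *fbxa-206*, *fbxa-161* and *fbxa-122*. Decreases in the family numbered 2, 3, 4, 11, 4 and 2 with the same arrays left out.

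Genes of mitosis and the cell cycle were lower more often than not, 66 of 80, with 11 called lower (13.8%, against 3.47% over all genes) and 1 higher and a median of −0.24 against 0.06. Their median level was 10.79, 10.52 and 10.63 in wild type and 10.49, 10.54 and 10.46 in *lin-54*, so the list's arrays were close. Of all genes at wild type levels from 10 to 12, 7.04% were called lower. The mitotic kinase gene *cdk-1* read 11.81, 11.76 and 11.72 in wild type and 11.30, 11.37 and 11.36 in *lin-54* (−0.42 ± 0.07, SE, q = 0.00509). The phosphatase gene *cdc-25.2*, whose product activates CDK, fell from 7.98, 7.88 and 7.63 to 7.28, 6.80 and 6.57 (−0.94 ± 0.18, q = 0.0127). The groups did not overlap for either gene, as for 589 of the 593 genes called lower. The cyclin B genes *cyb-3* (−0.42, but −0.13 and not called by probe sets of an unshared type) and *cyb-2.2* (−0.34), the polo kinase gene *plk-1* (−0.37), the spindle checkpoint gene *mdf-1* (−0.60), the APC activator gene *fzy-1* (−0.36), the chromokinesin gene *klp-19* (−0.69), the microtubule polymerase gene *zyg-9* (−0.52) and *cpar-1*, a centromeric histone H3 gene (−0.49), fell as well. The 1 increase was *wee-1.1* (0.35, q = 0.0468), a CDK-inhibitory kinase gene at a low level. With the 6 arrays left out in turn in the order used above, 2, 10, 3, 10, 5 and 2 fell, and 4 did so without shared probe sets. The calls of *cdk-1* and *mdf-1* held with any 1 of the 12 arrays left out, whereas in such fits the highest q lay between 0.0629 and 0.171 for *cdc-25.2*, *klp-19*, *cyb-3*, *fzy-1*, *cyb-2.2*, *zyg-9*, *plk-1*, *cpar-1* and *wee-1.1*.

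DNA replication genes gave few calls, 1 up (2.5%) and 2 down (5%) of 40 with a median of −0.04, near the 2.58% and 3.47% over all genes. The nucleotide supply genes *rnr-2* (ribonucleotide reductase, −0.47, q = 0.0210) and *dut-1* (dUTPase, −0.47, q = 0.0292) fell and *mcm-10* rose (0.40, q = 0.0427). None of 31 DNA damage and repair genes was called by limma, with 2 higher and 1 lower at an unadjusted p under 0.05. Core histone genes, whose coding sequences are nearly alike, gave 3 decreases of 26 (11.5%, against 3.47% over all genes). The list was mixed, with 15 lower and 11 higher and a median of −0.08. Its median level in wild type was 9.35, and 9.27% of all genes from 8 to 10 were called lower. Probe sets of an unshared type alone gave 1 decrease and a median of 0.16. The neighbours *his-67* (−0.87, q = 0.00326) and *his-68* (−0.75, q = 0.0134) on chromosome I and *his-61* (−0.64, q = 0.0187) on IV fell. Of 9 linker histone genes *hil-8* fell from 6.45, 5.73 and 6.49 to 4.99, 5.27 and 5.25 (−1.05 ± 0.17, q = 0.00662) and *hil-4* by a smaller amount (−0.36, q = 0.0420). These 2 were 22.2% of the list, against 3.47% over all genes. The other 7 linker histone genes were higher, though none was called, and the list's median was 0.11 against 0.06 over all genes. Without overlap 4 of the 9 were higher, where 17.6% of all genes were. The calls of *his-67* and *hil-8* held with any 1 of the 12 arrays left out, whereas in such fits the highest q lay between 0.0602 and 0.155 for *rnr-2*, *dut-1*, *mcm-10*, *his-68*, *his-61* and *hil-4*.

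Meiotic prophase genes had a median of −0.06 over 56 members (0.01 after a further quantile normalization), with 5 called lower (8.93%, against 3.47% over all genes) and 1 higher (1.79%, against 2.58%). The list's median level in wild type was 9.84. Of all genes at levels from 8 to 10, 9.27% were called lower, a share near that of the list. The increase was that of *syp-1*, which encodes a central region protein of the synaptonemal complex. It read 10.35, 10.05 and 10.29 in wild type and 11.14, 11.17 and 11.28 in *lin-54* (0.97 ± 0.14, SE, q = 0.00350), the mutant arrays all above the wild type arrays. The genes that fell act in recombination, namely *dsb-1* in double-strand break formation (−0.55), the MSH4 gene *him-14* (−0.87), *rmh-2* (−0.69, q = 0.00343), the BRCA2 gene *brc-2* (−0.39) and *him-17* (−0.41). The decreases numbered 1, 4, 1, 6, 1 and 1 with wild type arrays 1 to 3 and *lin-54* arrays 1 to 3 left out in turn. The calls of *syp-1* and *rmh-2* held with any 1 of the 12 arrays left out, whereas in such fits the highest q lay between 0.0738 and 0.159 for *dsb-1*, *him-14*, *brc-2* and *him-17*.

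Small RNA pathway genes gave 8 decreases of 45 (17.8%, against 3.47% over all genes) and no increase, with a median of −0.16. The RNA-dependent RNA polymerase genes *rrf-1* (8.60, 8.73 and 8.7 in wild type, 8.42, 8.08 and 7.77 in *lin-54*, change −0.59, q = 0.0272) and *rrf-3* (−0.55, q = 0.0269) fell. So did the Argonaute genes *rde-1* (−0.72) and *alg-1*, which is X-linked (−0.89, but −0.42 and not called by the mean of its probe sets), the helicase genes *rde-12* (−0.46) and *znfx-1* (−0.58, but −0.32 and not called by that mean), and *rde-2* (−0.43) and *rsd-6* (−0.37). With 1 of the 12 arrays left out the highest q lay between 0.0950 and 0.164 for *rrf-1*, *rrf-3*, *rsd-6*, *alg-1*, *rde-1*, *rde-2*, *rde-12* and *znfx-1*. The count was 0, 3, 0, 8, 1 and 0 without each of the wild type and then the *lin-54* arrays, and 3 with the Benjamini-Hochberg adjustment. In the 34 germline RNA regulator and P granule genes limma called none (none higher and 4 lower at an unadjusted p under 0.05), and *glh-1* changed by −0.16 (q = 0.392).

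The remaining lists held few called genes each, where 2.58% of all genes were called higher and 3.47% lower. Of genes at wild type levels from 8 to 10, 9.27% were called lower. The median levels of the synMuv and apoptosis lists below, 9.92 and 8.64, lay in that range. None of 15 MES and histone methylation genes was called by limma (4 lower and none higher at an unadjusted p under 0.05). Of 22 other synMuv and heterochromatin genes 20 were lower (median −0.23), and *mep-1* (−0.53, q = 0.0417) and *lin-56* (−0.50, q = 0.0418) fell (9.09%). *sea-2* fell among 23 dosage compensation and sex determination genes (−0.80, q = 0.00798), 4.35% of the list and near the share over all genes. The cell death regulator *ced-9*, a BCL2 homolog (−0.72, q = 0.0302), and the corpse receptor gene *ced-1* (−0.55, q = 0.0424) fell among 22 apoptosis genes (9.09%). The nucleoporin gene *npp-1* fell among 26 (−0.43, q = 0.0187), 3.85% of the list and also near the share over all genes. The X-linked small heat shock gene *hsp-43* rose (0.45, q = 0.0303) and *hsp-1* fell among 20 heat shock genes, 5% each way. The call of *sea-2* held with any 1 of the 12 arrays left out, whereas in such fits the highest q lay between 0.0821 and 0.163 for *mep-1*, *lin-56*, *ced-9*, *ced-1*, *npp-1* and *hsp-43*.

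Markers of cells outside the germline gave few calls, with 2 large decreases in the sheath list and a shift of the muscle list. Of 24 sheath and somatic gonad genes 2 fell (8.33%, against 3.47% over all genes) and none rose, and the median change was −0.16 against 0.06 over all genes. The list's median level was 6.36, 6.24 and 6.25 in wild type and 6.36, 6.06 and 5.94 in *lin-54*, and the genes that fell, *inx-8* and the X-linked tyramine beta-hydroxylase gene *tbh-1*, were both among the largest decreases of the comparison. *tbh-1* dropped from 9.98, 10.16 and 9.27 to 6.86, 6.73 and 5.42 (−3.47 ± 0.34, SE, q = 4.38e-04). The sheath gene *inx-9*, a close paralog of *inx-8*, read 7.13, 7.47 and 7.0 against 7.44, 6.24 and 6.71 in *lin-54*, which overlapped (−0.40, q = 0.284). The transcription factor genes of the sheath, *ceh-18* (0.17) and *lim-7* (0.21), were not called. What sheath tissue contributed to the decreases was not tested. In muscle 22 of 24 genes were higher (median 0.27, close to the 0.28 of the oxidative phosphorylation list), 7 of them at an unadjusted p under 0.05. Over all 17085 genes 10696 were higher, 2112 of them at that p. No muscle gene was called higher by limma. *unc-45* (−0.62, q = 0.0133), a myosin chaperone gene also used in other cells, and *tni-4* (−0.48, q = 0.0444) fell (8.33%, against 3.47% over all genes). The muscle list's median level was 6.24, 6.48 and 6.41 in wild type and 6.94, 6.49 and 6.80 in *lin-54*, highest on mutant array 1 and lowest on array 2, the order of the *msp* genes. What muscle tissue contributed to the comparison was not tested. Of 30 intestinal genes limma called none (8 higher and 1 lower at an unadjusted p under 0.05). Of 108 neuronal genes 2 rose (1.85%) and 1 fell (0.926%), below the shares over all genes. They were *flp-1* (0.42, but −0.03 by probe sets of an unshared type) and *nlp-9* (0.27), which rose, and *nlp-81* (−0.66), which fell. Of 146 collagen and hypodermal genes *col-148* (0.37) and *col-33* (0.33) rose (1.37%, against 2.58% over all genes). Of 17 basement membrane genes *mig-6* rose, 5.88% of the list (0.80, q = 0.0127, but 0.022 and not called when only probe sets above the median level were kept). The calls of *nlp-81*, *inx-8* and *tbh-1* held with any 1 of the 12 arrays left out, whereas in such fits the highest q lay between 0.0602 and 0.180 for *unc-45*, *tni-4*, *flp-1*, *nlp-9*, *col-148*, *col-33* and *mig-6*.

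The genes that fell were drawn from well-expressed genes. Their median level in wild type was 8.74, against 6.51 for the genes that rose and 5.80 for all genes, and 61.4% of them, 38.3% of the genes that rose and 24.8% of all genes lay above 8. The share called lower was 0.235% of genes under a level of 5 and was 9.27% between 8 and 10 and 14.2% at 12 and over. The share called higher varied less, from 1.08% to 4.98%. The levels come from the same wild type arrays as the changes, and a gene near the background signal gives a compressed change, so the bins are a description. In the bins from 5 to 12 the share called lower was higher on the X than on the autosomes, and under 5 it was 0.131% against 0.253%. Over all levels 4.29% of the 2355 X-linked genes fell and 1.91% rose, with a median change of 0.05, near the values of all genes, while on chromosomes I to V 2.66% to 3.81% fell, with medians of 0.05 to 0.06. These differences between shares were not tested. Between 6 and 8 the shares were 6.81% and 4.38%, and between 8 and 10 they were 36.2% (34 of 94) and 7.96% (154 of 1934). Above 8 as a whole, 37 of 101 X-linked genes fell (36.6%) and 3 rose (*H11L12.1*, *pkhm-2* and *suca-1*), with a median of −0.79 and 92 of 101 lower, whereas 327 of 4134 autosomal genes fell (7.91%) and 166 rose, with a median of −0.06. When the level was taken over the 6 arrays of both genotypes, a choice made after seeing the data, the shares that fell were 33.8% (23 of 68) and 7.1% (290 of 4084). Autosomes were alike in this respect, with 6.01% to 11.3% of genes above 8 called lower on chromosomes I to V.

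**Figure D4:**
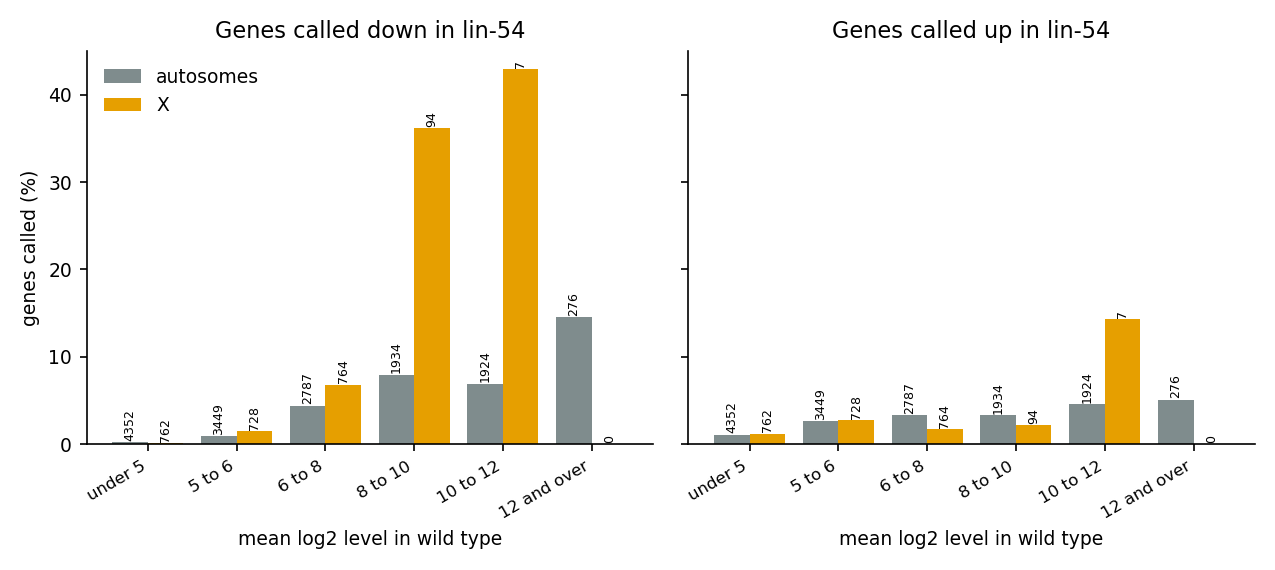
Percent of genes called lower (left) and higher (right) in *lin-54* by mean log2 level in wild type, for autosomal and X-linked genes, with the number of genes tested written at each bar. The X-linked bar at levels 8 to 10 reaches 36.2% of 94 genes called lower, against 7.96% of 1934 autosomal genes, and the next X-linked bar rests on 7 genes.

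On the X, 101 genes fell and 45 rose, 4.29% and 1.91% of those measured, against 3.47% and 2.58% over all genes. After *tbh-1*, the largest decreases were *C39D10.7*, from 11.31, 11.50 and 10.89 to 9.16, 8.07 and 7.86 (−2.87 ± 0.30, SE, q = 6.45e-04), *C17G1.2* (−2.69, q = 0.00970), the trypsin-like protease gene *try-14* (−2.53, q = 0.00948) and *T04G9.7* (−2.0, q = 0.00631). As in the autosomal group, mutant array 1 stayed highest. Increases on the X were smaller. The succinyl-CoA synthetase gene *suca-1* rose from 8.03, 7.96 and 8.25 to 8.77, 9.15 and 9.44 (1.04 ± 0.21, q = 0.0157) and *pkhm-2* from 8.11, 7.95 and 8.17 to 9.23, 9.05 and 8.91 (0.98 ± 0.14, q = 0.00361). *H11L12.1* (0.83, q = 0.0341), *C10A4.3* (0.77, q = 0.0168) and *cab-1* (0.70, q = 0.00662) were the next. The calls of *tbh-1*, *C39D10.7*, *C17G1.2*, *try-14*, *T04G9.7*, *pkhm-2* and *cab-1* held with any 1 of the 12 arrays left out, whereas in such fits the highest q lay between 0.0757 and 0.130 for *suca-1*, *H11L12.1* and *C10A4.3*. The X-linked genes that fell numbered 28, 41, 43, 174, 40 and 26, and those that rose 6, 15, 6, 73, 13 and 4, without wild type arrays 1 to 3 and *lin-54* arrays 1 to 3 in turn.

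Some genes called in the same direction lay next to each other, in the order of the annotation, in 41 runs of decreases and 11 runs of increases. With 3.47% of all genes called lower and 2.58% higher, some neighbours share a call from these shares alone. How many runs that would give was not worked out, so the counts are not read as clustering. The longest runs held 4 genes. One on chromosome IV comprised *F02H6.1* (−0.48), *F02H6.2* (−1.0), *F02H6.3* (−0.96, but −0.64 and not called by the mean of its probe sets) and *F02H6.4*, which fell from 8.98, 8.85 and 8.90 to 7.42, 7.57 and 7.22 (−1.51 ± 0.16, SE, q = 6.74e-04). The other, on V, comprised *F14H3.3* (−1.16), *F14H3.4* (−1.27), *F14H3.5* (−1.16) and *F14H3.6*, from 11.01, 10.83 and 10.62 to 10.14, 9.63 and 9.14 (−1.18 ± 0.21, q = 0.0102). The call of *F02H6.4* held with any 1 of the 12 arrays left out, whereas in such fits the highest q lay between 0.0563 and 0.188 for *F02H6.1*, *F02H6.2*, *F02H6.3*, *F14H3.3*, *F14H3.4*, *F14H3.5* and *F14H3.6*. Around *lin-54* itself, of the 10 measured genes on each side, the adjacent gene *JC8.4* fell (−0.72, q = 0.0229), *unc-26* fell (−0.55, q = 0.0489, but 0.33 and not called after a further quantile normalization) and *JC8.7* rose (0.45, q = 0.0401), while 17 were not called. With 1 of the 12 arrays left out the highest q lay between 0.0967 and 0.174 for *JC8.4*, *unc-26* and *JC8.7*.

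The double mutant against *mes-4* is a comparison that also differs by *lin-54* and takes its difference from other arrays than the one above. Both were tested with 1 residual variance from all 12 arrays, so their calls do not come from fully separate data. The double mutant comparison called 411 genes higher (2.41%) and 915 lower (5.36%). Of the 441 genes higher in *lin-54*, 416 (94.3%) had the same sign there, with a median of 0.25, and 159 (36.1%) were also called, which is 38.7% of the 411. Of the 593 lower, 582 (98.1%) had the same sign, with a median of −0.60, and 380 (64.1%) were also called, 41.5% of the 915. The share of all genes with the same sign in both comparisons was not worked out, so the shares by sign have no baseline here. Only 2 genes, *C18D4.6* and *Y17G7B.17*, were called in opposite directions, the latter through different probe sets in the 2 comparisons. The correlation of the changes was 0.908 across the called genes and 0.748 across all 17085, where genes are not independent replicates. *lin-54* itself changed by −4.18 in the *mes-4* background (q = 3.04e-05). *C54D10.10* changed by 5.1 (q = 8.79e-07), *C07E3.9* by 3.08 and *slc-36.4* by 2.12. Decreases were repeated for *cysl-2* (−2.1, q = 1.88e-04), *haf-6* (−2.43, q = 3.47e-04) and *cht-3* (−1.71, q = 0.00214), but *perm-4* (−1.21, q = 0.0910) and *skpo-1* (−1.31, q = 0.102) were not called. By list, 20 of 23 *msp* genes rose (median 2.92), 22 of 32 oocyte genes fell (−0.47) and 12 of 59 oxidative phosphorylation genes rose (0.23). Of 41 ER genes 10 fell and 2 rose (−0.18), and of 80 mitosis genes 10 fell and 1 rose (−0.19). The median over all genes in this comparison was 0.04. Some genes named above were called in the first comparison and not in the second, such as *ostb-1* (0.09, q = 0.390), *hil-8* (0.03, q = 0.649) and *pkhm-2* (0.07, q = 0.575), and their interaction with *mes-4* did not pass the threshold in limma. Because several probe sets measure some genes, those were compared as well. Of the called genes with more than 1 probe set, 14 of 99 that rose and 62 of 215 that fell had at least 2 probe sets called the same way, and none had a probe set called the other way.

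**Figure D5:**
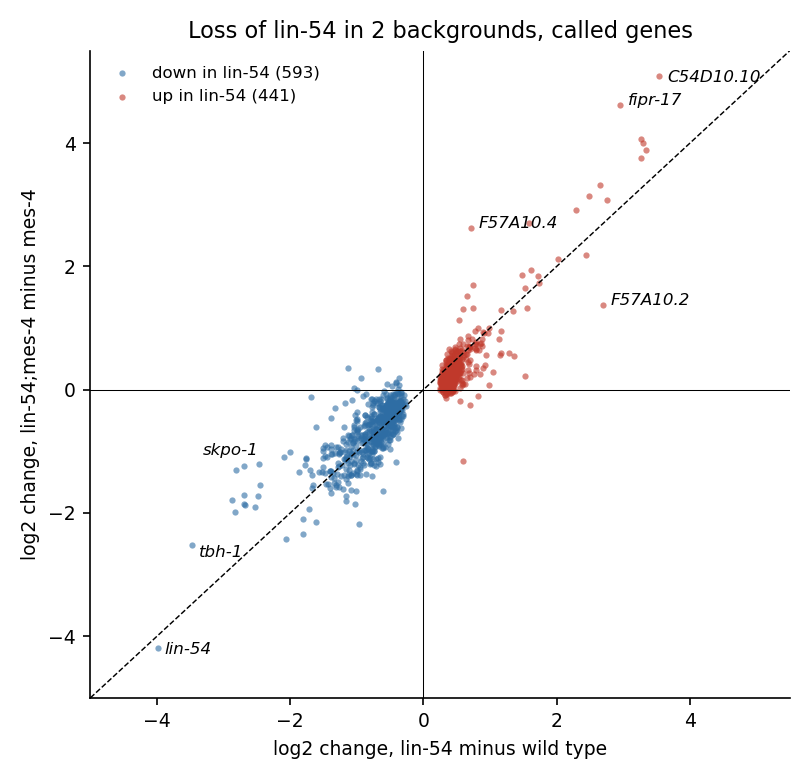
Log2 change in *lin-54* against wild type (horizontal) and in the double mutant against *mes-4* (vertical) for the called genes, 441 higher (red) and 593 lower (blue), with the line of equal change dashed. Most points lie on the same side of 0 on both axes (416 and 582 genes), the decreases with a median of −0.60 on the vertical axis.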

How the data were processed

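Transcript levels of dissected germlines were measured on 12 Affymetrix *C. elegans* arrays, 3 in each of 4 genotypes, and groups were taken from the labels. The authors used affy on the probe intensities, with quantile normalization and RMA (robust multichip average; versions not given in the sources used here), and the deposited values are log2 levels of 22548 probe sets and 77 controls. They were not normalized again. A probe set named a gene where the platform annotation gave 1 gene found in the RefSeq gene table (20701 probe sets, of which 5785 are of a type shared between transcripts or genes), and 887 with several genes, 895 with none and 65 not in the table were left out of counts of genes. The genome build of the annotation is not given in the sources used here, so no coordinates are printed, and sequences were not analysed here.

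limma 3.58.1 (R 4.3.3) was run on the 12 arrays together, with a mean for each genotype and 8 residual degrees of freedom. The moderated test of *lin-54* minus wild type gave a p-value for each probe set. Storey q-values were computed over the 22548 probe sets (lambda 0 to 0.9 in steps of 0.05, and a spline of 3 degrees of freedom). The probe set with the smallest p stood for its gene, which was called at a q-value at or below 0.05. The double mutant minus *mes-4* and the difference of both contrasts (the interaction) were tested in the same model. The model was tested on simulated data.

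The 31 gene lists, written from general knowledge, and the genes compared were chosen with earlier results of these data known. Lists are described by counts and medians, with no test of the list, and are read against the shares called and the median over all genes. Named genes are the 10 largest autosomal and 5 largest X-linked changes in each direction among called genes without overlap, the 5 called genes with the highest wild type level in each direction, the DRM subunits and up to 4 called members of each list by p. Further genes, including other members of small counts, were added after their values were seen. Alternatives changed 1 choice at a time, and arrays give no depth, so their number limits the precision.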

Additional observations from a re-analysis of the deposited data

Results flagged for a closer look

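The change with *lin-54* differed between the wild type and *mes-4* backgrounds for 6 genes by the interaction term in limma (Storey q at or below 0.05). These calls were not stable. With the replicate number as a block 1 gene was called, and 1 was called without wild type array 1 or 3, *lin-54* array 1 or 3 or *mes-4* array 2, 2 without *lin-54* array 2 or array 2 or 3 of the double mutant, 3 without wild type array 2, and 11 and 23 without *mes-4* arrays 3 and 1. *F57A10.4* rose by 0.71 against wild type and by 2.63 in the double mutant against *mes-4*, a difference of 1.92 (q = 0.000508). The double mutant and *lin-54* read 10.33 and 10.22, and *mes-4* read 7.7 against 9.51 in wild type. *fipr-17* rose by 2.95 and 4.62, a difference of 1.68 (q = 0.0318). *F13A2.4* changed by −0.61 against wild type and by −1.65 against *mes-4*, a difference of −1.04 (q = 0.0318). *C18D4.6* was called in opposite directions, with 0.59 and −1.16, a difference of −1.75 (q = 0.0318), from levels of 5.31 in wild type, 5.90 in *lin-54*, 8.31 in *mes-4* and 7.15 in the double mutant. *F23H12.3* changed by 0.40, which was not called, and by 2.1, a difference of 1.70 (q = 0.0318). *dpy-31*, which encodes an astacin metalloprotease, changed by 0.49, which was not called, and by 2.2, a difference of 1.71 (q = 0.0349).

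Probe sets outside the counts of genes also passed the test of *lin-54* against wild type. Of 887 probe sets annotated to several genes, 24 were higher and 18 lower. Of 895 with no gene listed, 14 were higher and 16 lower. Of 65 whose gene is not in the gene table, 1 was lower.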

How the results depend on the processing

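The counts of calls moved with the settings more than their directions did. The genes higher and lower in *lin-54* numbered 441 and 593. With the Benjamini-Hochberg adjustment they were 207 and 385, without shared probe sets 270 and 359 (fewer genes tested) and with array weights 1372 and 1286. Centring on the autosomal median left 168 higher. With 1 of the 12 arrays left out the counts ran from 79 to 564 and from 143 to 805. For the double mutant against *mes-4* (411 higher and 915 lower), the 6 arrays of both genotypes alone gave 168 and 548, removal of shared probe sets 256 and 547, and centring 269 higher, and leaving out 1 array gave 180 to 496 and 453 to 1034. The 6 interaction calls became 11 with probe sets averaged per gene, 10 with array weights, 1 with the replicate block and 1 to 23 with 1 array left out. Deviations of wild type and *lin-54* arrays with the same number correlated at 0.19, −0.03 and 0.10, and those with different numbers at −0.17 to 0.11. So few pairs cannot decide whether replicate numbers pair the samples. With the number as a block 628 genes were higher and 765 lower, among them 420 and 572 of the original calls.

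Some directions turned. The median of the meiotic list became 0.0077 after quantile normalization, that of core histones 0.16 without shared probe sets, and those of F-box genes and translation factors −0.0047 and −0.018 after centring. Without shared probe sets *fbxc-50* changed by 0.011 and *flp-1* by −0.027. After quantile normalization *unc-26* changed by 0.33 and *lin-52* by 0.14, and with 1 array left out *lin-52* ran from −0.27 (without wild type array 3) to 0.15 (without wild type array 1), with 0.12 without *lin-54* array 3. In these a gene's most significant probe set could change with the setting. Of 3639 values of the 169 called genes named here, 2919 kept direction and call, 717 kept direction only and 3 reversed, and 53 genes kept the call under every alternative. The cause of the other shifts was not tested. Promoter motifs were not run, since no sequences were at hand. Levels near the background signal, where most genes lie, limit the changes that could be read.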

Other observations

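The vitellogenin genes, which encode yolk proteins made in the intestine, varied between arrays of the same genotype more than between genotypes. *vit-2* read 8.99, 7.40 and 8.48 on the wild type arrays and 9.07, 9.33 and 6.32 on the *lin-54* arrays. *vit-6* read 10.50, 9.40 and 10.08 in wild type and 10.77, 11.12 and 8.68 in *lin-54*. Both had their lowest value on *lin-54* array 3 and their highest on *lin-54* array 2, and the groups overlapped. This order differs from that of the *msp* genes, which were lowest on *lin-54* array 2, and from that of the largest decreases, which were highest on *lin-54* array 1. The part of intestinal RNA in the comparison was not tested.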
